A study of Mus musculus with 18 samples.

Results

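The Hox genes encode homeodomain transcription factors that lie in 4 clusters, Hoxa on chromosome 6, Hoxb on chromosome 11, Hoxc on chromosome 15 and Hoxd on chromosome 2. Every gene whose symbol is Hox followed by a cluster letter and a number was taken, with antisense genes left out, and 33 of the 18193 genes named on the array met this rule with a probe set of their own. They comprised 9 Hoxa, 9 Hoxb, 7 Hoxc and 8 Hoxd genes, and each was read from the probe set with its highest mean over all 18 arrays. Hox genes without a probe set of their own are not among the 33.

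Fetal BALB/c mouse lung was profiled on Affymetrix MOE430 2.0 arrays to ask how sex and androgen blockade change its transcripts around the onset of surfactant production. Dams were injected under the skin once a day, from GD10 (gestational day 10) to the day before harvest, with 1 mg of flutamide, which blocks the androgen receptor, or with vehicule. The 6 groups were males (17 m), females (17 f) and flutamide-treated males (17 flut) at GD17 and the matching 18 m, 18 f and 18 flut at GD18, where the males and females came from vehicule-injected dams. A group held 3 arrays, each with a pool of whole-lung RNA from 3 fetuses of 1 sex and distinct litters. All groups therefore shared the strain, the organ and the daily injection of the dam, flutamide reached the fetus through the dam, and flutamide-treated females were not among the groups.

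Hox proteins bind DNA together with TALE homeodomain cofactors of the Pbx, Meis and Pknox families and give cells a position along the body axis. Genes of a cluster are switched on in the order in which they lie on the chromosome, with the 3' genes active further forward, and genes of the same number in different clusters, called a paralog group, overlap in function. In the lung, Hox genes of the 3' and middle part of the clusters are known from the mesenchyme, where Hoxa5 and Hoxb5 act in airway branching and patterning.

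Signals are log2 of the deposited RMA intensity, each difference is on that log2 scale, taken in the order in which the groups are named, with the standard error (SE) of the limma model, and called means a Benjamini-Hochberg adjusted p under 0.05 over 45037 probe sets. Signals of different genes come from different probe sets and are not set against each other. In female arrays, where they have no target, 3 Y-linked genes gave values of 3.09 to 3.84, and 30 of the 33 Hox genes exceeded the highest of these in the mean of at least 1 group, whereas Hoxb1, Hoxd1 and Hoxd10 did not. Some pools stood apart in genes of other tissues. Exocrine pancreas genes had a mean signal of 9.94 to 10.5 in 17 f 2, 17 f 3 and 17 m 3, against 5.63 to 6.24 in the other pools, and 17 f 2 and 17 f 3 were also high in squamous epithelium genes (9.28 to 9.31, against 5.92 to 7.69). Liver genes were at 12.1 in 18 m 3, against 6.74 to 10.9, and skeletal muscle genes were at 10.3 to 11.3 in 18 f 2 and 18 flut 2, against 6.20 to 8.55. Pool 18 flut 3, labelled male, went against its label in part. Its Xist, the RNA of the inactive X chromosome, was at 11.9, within the 11.3 to 12.5 of the female pools, and its Y-linked Uty, Kdm5d and Eif2s3y were at 7.11 to 7.21, against 7.90 to 8.84 in the other male pools. Calls that were lost without 17 f 2, 17 f 3 and 17 m 3, the pancreas-high pools, or without 18 m 3 and 18 flut 3 are given beside the results. Without the pancreas-high pools 17 f keeps a single array, 17 f 1, which is assumed to vary like the pools of the other groups, so that female values from that fit rest on 1 GD17 pool.

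Hoxa5 and Hoxb5, known from lung mesenchyme, were both far above the signal of absent transcripts in every pool. This shows that they were detected and does not test tissue identity. Hoxa5, which is needed for tracheal and lung morphogenesis, was at 9.92, 9.81 and 9.62 in the pools of 17 m, at 10.03, 9.83 and 9.76 in those of 17 f, and at 9.91, 9.95 and 9.87 in those of 17 flut at GD17. At GD18 Hoxa5 was at 9.87, 9.89 and 9.49 in the pools of 18 m, at 9.68, 9.70 and 9.83 in those of 18 f, and at 9.82, 9.92 and 9.84 in those of 18 flut. Within each kind of lung the days overlapped, and the difference of GD18 minus GD17 was -0.04 in males, -0.14 in females and -0.05 in flutamide-treated males, with 95% confidence intervals that together ran from -0.36 to 0.18. A second Hoxa5 probe set was not called in these comparisons either. Hoxb5, its paralog in the Hoxb cluster, was at 8.92, 8.61 and 8.63 in the pools of 17 m, at 9.03, 8.77 and 8.87 in those of 17 f, and at 8.77, 8.71 and 8.67 in those of 17 flut at GD17. At GD18 Hoxb5 was at 7.93, 8.04 and 8.19 in the pools of 18 m, at 7.88, 7.96 and 7.78 in those of 18 f, and at 8.02, 8.08 and 8.0 in those of 18 flut. For Hoxb5, all 9 pools of GD18 lay below all 9 pools of GD17. Hoxc5, the other member of paralog group 5, was at 5.47, 5.44 and 5.66 in the pools of 17 m, at 5.46, 5.43 and 5.80 in those of 17 f, and at 5.66, 5.71 and 5.59 in those of 17 flut. At GD18 Hoxc5 was at 5.36, 5.27 and 5.51 in the pools of 18 m, at 5.37, 5.48 and 5.54 in those of 18 f, and at 5.67, 5.54 and 5.51 in those of 18 flut. The days overlapped, and the Hoxc5 difference of -0.14 in males, -0.10 in females and -0.08 in flutamide-treated males was not called.

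Between GD17 and GD18, the Hox genes that fell lay mainly in 1 stretch of the Hoxb cluster. Hoxb2, Hoxb3, Hoxb4, Hoxb5 and Hoxb6 were called lower at GD18 in males and in females, and all of these but Hoxb4 were called lower in flutamide-treated males. Of the 33 Hox genes, 6 (18.2%) were called lower in males, where 25.0% of all probe sets were called and 12.6% were called lower. In females 9 Hox genes (27.3%) were called lower, against 33.6% of all probe sets called and 17.1% called lower. In flutamide-treated males 4 Hox genes (12.1%) were called lower, against 20.3% and 10.7% of all probe sets. No Hox gene was called higher at GD18 in these 3 comparisons, in each of which the share of Hox genes called was below the share of all probe sets called in either direction. The median difference over the 33 genes was -0.04, -0.07 and -0.01 in males, females and flutamide-treated males, beside 0.01, 0.02 and -0.01 over all probe sets. Pools of the 2 days did not overlap in 10 Hox genes in males (30.3%), 10 in females (30.3%) and 8 in flutamide-treated males (24.2%). Over all probe sets the shares without overlap were higher, at 33.2%, 48.4% and 39.4%.

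The 5 genes Hoxb2 to Hoxb6 are neighbours on chromosome 11, with Hoxb7 on one side of them and Hoxb1 on the other, a stretch singled out after its values were seen. Their median difference was -0.62 in males, -0.50 in females and -0.37 in flutamide-treated males, whereas over the other 28 Hox genes it was -0.01, -0.04 and 0.01. The mean signal of the 5 genes lay between 8.49 and 8.82 in the 9 pools of GD17 and between 7.91 and 8.15 in the 9 pools of GD18, without overlap. The other measured genes of the cluster were not called: Hoxb1, Hoxb7, Hoxb9 and Hoxb13 differed by -0.10 to 0.22 in males, by -0.08 to 0.02 in females and by -0.16 to 0.04 in flutamide-treated males. In bulk lung RNA, fewer cells that express a gene and less RNA per cell cannot be told apart.

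**Figure D1:**
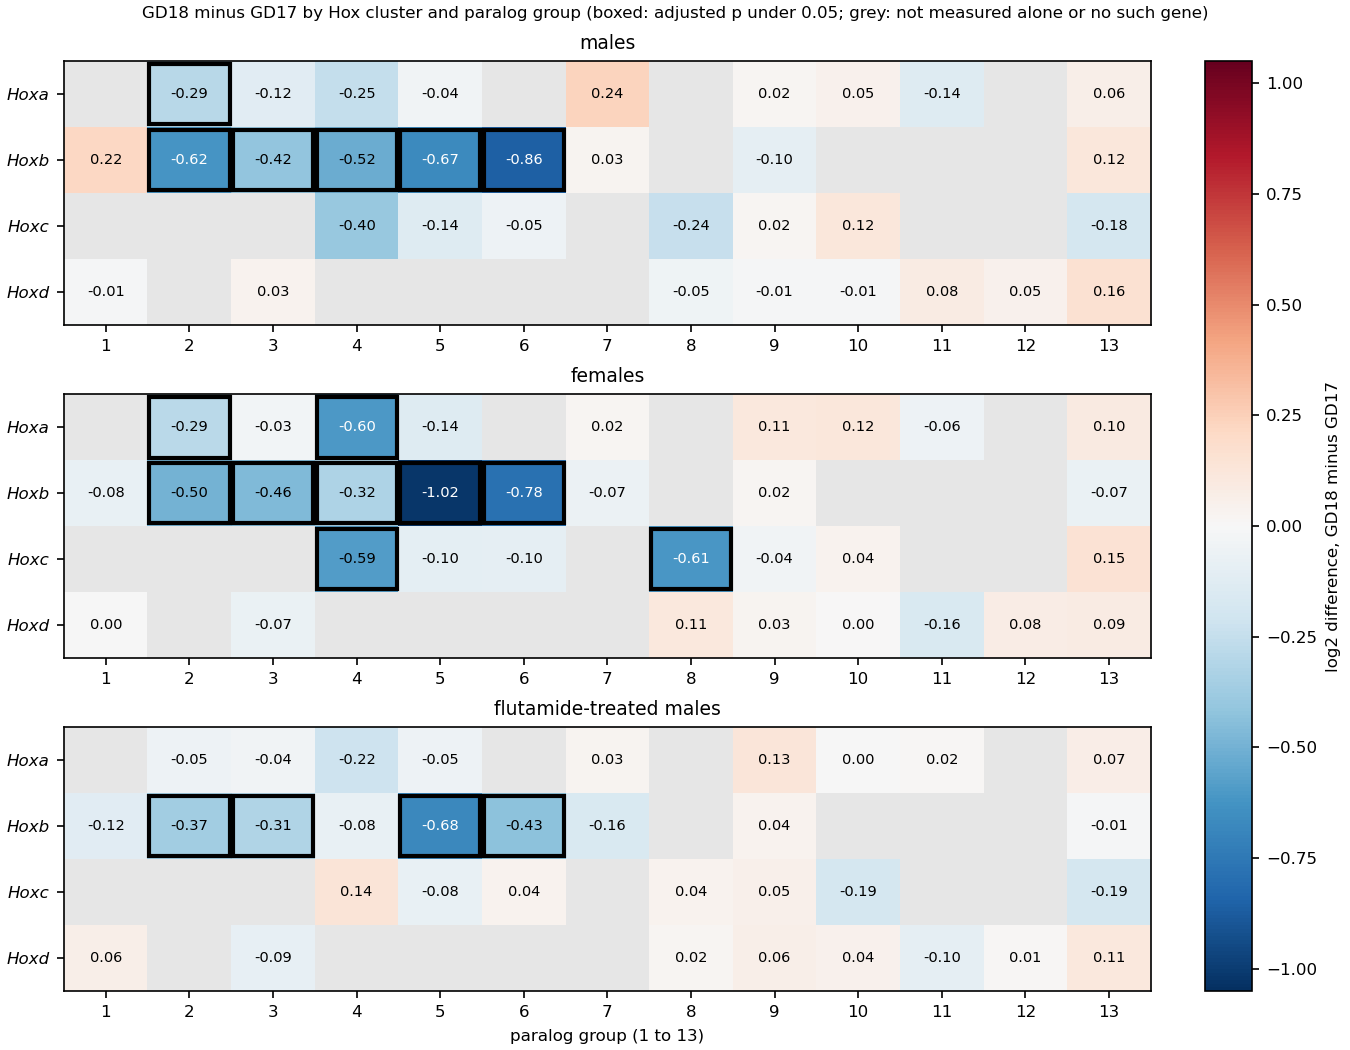
Log2 difference of GD18 minus GD17 for each measured Hox gene, with the 4 clusters as rows and the paralog groups as columns, in males (top), females (middle) and flutamide-treated males (bottom). Blue is lower at GD18, boxes mark genes with an adjusted p under 0.05, and grey cells hold no gene or none measured alone. The boxed Hoxb genes form an unbroken run from Hoxb2 to Hoxb6 in males and females. Outside this cluster Hoxa2 is boxed in males, and Hoxa2, Hoxa4, Hoxc4 and Hoxc8 in females.

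Hoxb5 showed the largest fall of the family in females and in flutamide-treated males. It fell by 0.67 in males (SE 0.09, adjusted p = 7.0e-05), a 1.59-fold lower signal. In females Hoxb5 decreased by 1.02 (SE 0.09, adjusted p = 4.8e-07), or 2.03-fold. In flutamide-treated males it decreased by 0.68 (SE 0.09, adjusted p = 6.5e-05), or 1.60-fold. Hoxb6, a neighbour of Hoxb5 known from the limb bud and lateral mesoderm, showed the largest fall in males. At GD17 Hoxb6 was at 8.07, 7.58 and 7.63 in the pools of 17 m, at 7.94, 7.77 and 7.76 in those of 17 f, and at 7.47, 7.56 and 7.48 in those of 17 flut. At GD18 Hoxb6 was at 6.91, 7.02 and 6.78 in the pools of 18 m, at 7.15, 7.02 and 6.95 in those of 18 f, and at 7.02, 7.10 and 7.10 in those of 18 flut. No pool of GD18 reached the lowest pool of GD17, and 17 m 1 was the highest of all. Hoxb6 fell by 0.86 in males (SE 0.11, adjusted p = 3.1e-05), by 0.78 in females (SE 0.11, adjusted p = 2.4e-05) and by 0.43 in flutamide-treated males (SE 0.11, adjusted p = 0.0081).

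Hoxb2 and Hoxb3, which pattern the hindbrain, fell by smaller amounts in all 3 kinds of lung. At GD17 Hoxb2 was at 9.23, 9.0 and 8.88 in the pools of 17 m, at 9.13, 9.0 and 9.06 in those of 17 f, and at 9.0, 9.0 and 8.90 in those of 17 flut. At GD18 Hoxb2 was at 8.54, 8.50 and 8.22 in the pools of 18 m, at 8.65, 8.62 and 8.42 in those of 18 f, and at 8.58, 8.62 and 8.61 in those of 18 flut. The lowest GD17 value of Hoxb2 was 8.88 and the highest GD18 value 8.65, so that the days did not overlap. Hoxb2 fell by 0.62 in males (SE 0.10, adjusted p = 2.1e-04), by 0.50 in females (SE 0.10, adjusted p = 6.7e-04) and by 0.37 in flutamide-treated males (SE 0.10, adjusted p = 0.012). Hoxb3 lies next to it in the stretch. At GD17 Hoxb3 was at 9.92, 9.72 and 9.83 in the pools of 17 m, at 9.97, 9.84 and 9.81 in those of 17 f, and at 9.86, 9.91 and 9.80 in those of 17 flut. At GD18 Hoxb3 was at 9.41, 9.52 and 9.29 in the pools of 18 m, at 9.51, 9.37 and 9.35 in those of 18 f, and at 9.54, 9.61 and 9.49 in those of 18 flut. Hoxb3 had its lowest GD17 value at 9.72 and its highest GD18 value at 9.61. It fell by 0.42 in males (SE 0.08, adjusted p = 7.0e-04), by 0.46 in females (SE 0.08, adjusted p = 1.5e-04) and by 0.31 in flutamide-treated males (SE 0.08, adjusted p = 0.0067). A second Hoxb3 probe set gave -0.12, -0.21 and -0.23 in the same order and was not called.

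Hoxb4, known for its role in blood stem cells, was the member of the stretch that was not called in flutamide-treated males. At GD17 Hoxb4 was at 7.95, 7.81 and 7.66 in the pools of 17 m, at 7.98, 7.75 and 7.77 in those of 17 f, and at 7.56, 7.37 and 7.59 in those of 17 flut. At GD18 Hoxb4 was at 7.46, 7.29 and 7.10 in the pools of 18 m, at 7.38, 7.62 and 7.53 in those of 18 f, and at 7.44, 7.35 and 7.51 in those of 18 flut. The 17 flut pools lay below those of 17 m and 17 f and overlapped with those of 18 m, 18 f and 18 flut. Hoxb4 fell by 0.52 in males (SE 0.10, adjusted p = 0.0015) and by 0.32 in females (SE 0.10, adjusted p = 0.024), and the difference in flutamide-treated males was -0.08 (95% confidence interval -0.30 to 0.14, adjusted p = 0.70). Without 17 f 1 the call in females was lost (-0.25, adjusted p = 0.11), and likewise without 18 f 1 (-0.26, adjusted p = 0.11). A second Hoxb4 probe set gave -0.16 in males, -0.22 in females (adjusted p = 0.025) and -0.15 in flutamide-treated males, of which only the female value was called, and it was lost without the 3 pancreas-high pools (-0.26, adjusted p = 0.12).

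The sequence before the start of a gene is shown for Hoxb4, Hoxa2 and Hoxc4, the genes called between the days in at least 1 kind of lung with all pools and with an entry in the RefSeq promoter table (GRCm38.p6), together with Hoxa5 as a group 5 gene that was not called. The Hoxc4 call was in females and was lost without the pancreas-high pools. Of the 33 measured Hox genes 19 had an entry, and Hoxb2, Hoxb3, Hoxb5 and Hoxb6 were not among them. Each line holds the 250 bases upstream of the start, 5' to 3' on the strand of the gene, at chr11:96318017-96318266 (+) for Hoxb4, chr6:52164832-52165081 (-) for Hoxa2, chr15:103034145-103034394 (+) for Hoxc4 and chr6:52204588-52204837 (-) for Hoxa5. Capitals mark matches on either strand to AGGTCA, the half-site of many nuclear receptors (read as TGACCT on the other strand), or to TGATTNAT, a site bound by Hox and Pbx proteins together (read as ATCAATCA).
Hoxb4: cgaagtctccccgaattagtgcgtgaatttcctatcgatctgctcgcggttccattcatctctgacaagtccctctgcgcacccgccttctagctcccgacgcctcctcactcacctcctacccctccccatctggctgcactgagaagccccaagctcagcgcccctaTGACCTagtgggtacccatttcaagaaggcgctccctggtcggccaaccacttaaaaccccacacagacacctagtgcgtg
Hoxa2: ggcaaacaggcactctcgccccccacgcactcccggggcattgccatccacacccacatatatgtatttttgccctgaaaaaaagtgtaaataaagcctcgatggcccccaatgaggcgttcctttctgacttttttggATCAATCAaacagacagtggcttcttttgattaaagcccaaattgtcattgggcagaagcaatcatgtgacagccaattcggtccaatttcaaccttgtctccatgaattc
Hoxc4: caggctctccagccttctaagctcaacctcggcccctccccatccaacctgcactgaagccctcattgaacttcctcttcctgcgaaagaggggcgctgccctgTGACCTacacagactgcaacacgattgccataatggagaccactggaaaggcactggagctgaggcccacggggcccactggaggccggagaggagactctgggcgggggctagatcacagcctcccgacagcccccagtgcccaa
Hoxa5: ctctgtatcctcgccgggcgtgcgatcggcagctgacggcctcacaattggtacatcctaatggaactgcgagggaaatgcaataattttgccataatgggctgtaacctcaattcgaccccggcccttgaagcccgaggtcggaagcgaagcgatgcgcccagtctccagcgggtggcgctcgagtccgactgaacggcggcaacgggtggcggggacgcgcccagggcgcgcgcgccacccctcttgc

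The motifs were also counted in the upstream windows of the whole table. Its 24 Hox windows belong to 22 genes, the 19 measured ones and also Hoxd4, Hoxa6 and Hoxb8, which have no probe set of their own. AGAACA, the half-site of the androgen receptor, stood in 2 of the 24 Hox windows, those of Hoxa9 and Hoxa11, and in 16.1% of all 32851 windows. AGGTCA stood in 6 of the 24 Hox windows and in 14% of all windows, TGATTNAT in 2 and in 2.82%, and the TATA box TATAAA in 4 and in 12.4%. Hoxb4 and Hoxc4 each held 1 match to AGGTCA, Hoxa2 held 1 to TGATTNAT, and the Hoxa5 window held none of the 4 motifs. The Hoxa5 window held 28 CG dinucleotides, that of Hoxb4 14, that of Hoxc4 8 and that of Hoxa2 6. Windows of other Hox genes that were not called ranged from 2, in 1 of Hoxd11, to 35, in that of Hoxa13. A match is a run of letters and not evidence of binding.

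Outside the Hoxb cluster, 4 genes were called lower at GD18 in at least 1 kind of lung. Hoxa2, which sets the identity of the second branchial arch, fell by 0.29 in males (SE 0.08, adjusted p = 0.018) and by 0.29 in females (SE 0.08, adjusted p = 0.014). At GD17 Hoxa2 was at 6.63, 6.46 and 6.66 in the pools of 17 m, at 6.61, 6.67 and 6.50 in those of 17 f, and at 6.31, 6.29 and 6.44 in those of 17 flut. At GD18 Hoxa2 was at 6.37, 6.39 and 6.11 in the pools of 18 m, at 6.23, 6.39 and 6.31 in those of 18 f, and at 6.28, 6.36 and 6.24 in those of 18 flut. The 17 flut pools overlapped with those of 18 flut, and the difference in flutamide-treated males was -0.05 (95% confidence interval -0.23 to 0.13). Without 18 m 3 the fall of Hoxa2 in males was not called (-0.20, adjusted p = 0.088), nor was it without 17 m 1 (-0.27, adjusted p = 0.064) or 17 m 3 (-0.25, adjusted p = 0.070). In females the Hoxa2 call was lost without 17 f 2 (-0.25, adjusted p = 0.064), without 18 f 1 (-0.25, adjusted p = 0.067) and without the 3 pancreas-high pools (-0.31, adjusted p = 0.10). Hoxa4, a gene of cervical vertebra identity, fell by 0.60 in females (SE 0.11, adjusted p = 4.3e-04), by 1.52-fold. At GD17 Hoxa4 was at 6.62, 6.51 and 6.19 in the pools of 17 m, at 6.78, 6.47 and 6.70 in those of 17 f, and at 6.43, 6.29 and 6.34 in those of 17 flut. At GD18 Hoxa4 was at 6.28, 6.27 and 6.03 in the pools of 18 m, at 6.04, 6.14 and 5.97 in those of 18 f, and at 6.04, 6.09 and 6.27 in those of 18 flut. The female pools of the 2 days did not overlap, and the differences of -0.25 in males and -0.22 in flutamide-treated males were not called. Without 17 m 3, which had the lowest GD17 value of Hoxa4, the male difference was called (-0.37, adjusted p = 0.020), whereas without 18 m 3 and 18 flut 3 it was -0.16 (adjusted p = 0.36). A dimmer Hoxa4 probe set was called in males at -0.33 (adjusted p = 0.014), but not without 18 m 3 and 18 flut 3 (-0.30, adjusted p = 0.053).

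Hoxc4 and Hoxc8, genes of thoracic identity, were called lower at GD18 in females with all pools, but not without those high in exocrine pancreas genes. At GD17 Hoxc4 was at 6.22, 6.08 and 6.71 in the pools of 17 m, at 6.10, 6.90 and 6.85 in those of 17 f, and at 5.87, 5.93 and 6.04 in those of 17 flut. At GD18 Hoxc4 was at 5.86, 5.87 and 6.08 in the pools of 18 m, at 6.02, 6.07 and 6.0 in those of 18 f, and at 5.87, 6.30 and 6.10 in those of 18 flut. The 3 highest Hoxc4 values belonged to 17 f 2, 17 f 3 and 17 m 3, the pools high in exocrine pancreas genes. Hoxc4 fell by 0.59 in females (SE 0.18, adjusted p = 0.020), and without those 3 pools, when 17 f 1 alone stood for 17 f, the difference was -0.07 (adjusted p = 0.81). At GD17 Hoxc8 was at 4.04, 3.24 and 3.64 in the pools of 17 m, at 3.51, 4.52 and 4.12 in those of 17 f, and at 3.45, 3.43 and 3.55 in those of 17 flut. At GD18 Hoxc8 was at 3.41, 3.54 and 3.25 in the pools of 18 m, at 3.19, 3.62 and 3.50 in those of 18 f, and at 3.44, 3.76 and 3.35 in those of 18 flut. Most Hoxc8 values lay under 3.84, the highest signal of absent transcripts, and the highest were those of 17 f 2 and 17 f 3. Hoxc8 fell by 0.61 in females (SE 0.22, adjusted p = 0.038), and against 17 f 1 alone the difference was -0.07 (adjusted p = 0.90). Leaving out any 1 of 17 f 2, 17 f 3, 18 f 1 and 18 f 3 also ended both calls, with adjusted p values of 0.053 to 0.11 for Hoxc4 and of 0.067 to 0.21 for Hoxc8. For Hoxb2, Hoxb3, Hoxb5 and Hoxb6 the calls remained without the 3 pools in all 3 kinds of lung, but the female differences of -0.56, -0.56, -1.16 and -0.90 then rested on 17 f 1, which had the highest GD17 female value of each of these genes. These calls also remained in flutamide-treated males without 18 m 3 and 18 flut 3, with differences of -0.37, -0.28, -0.66 and -0.44.

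**Figure D2:**
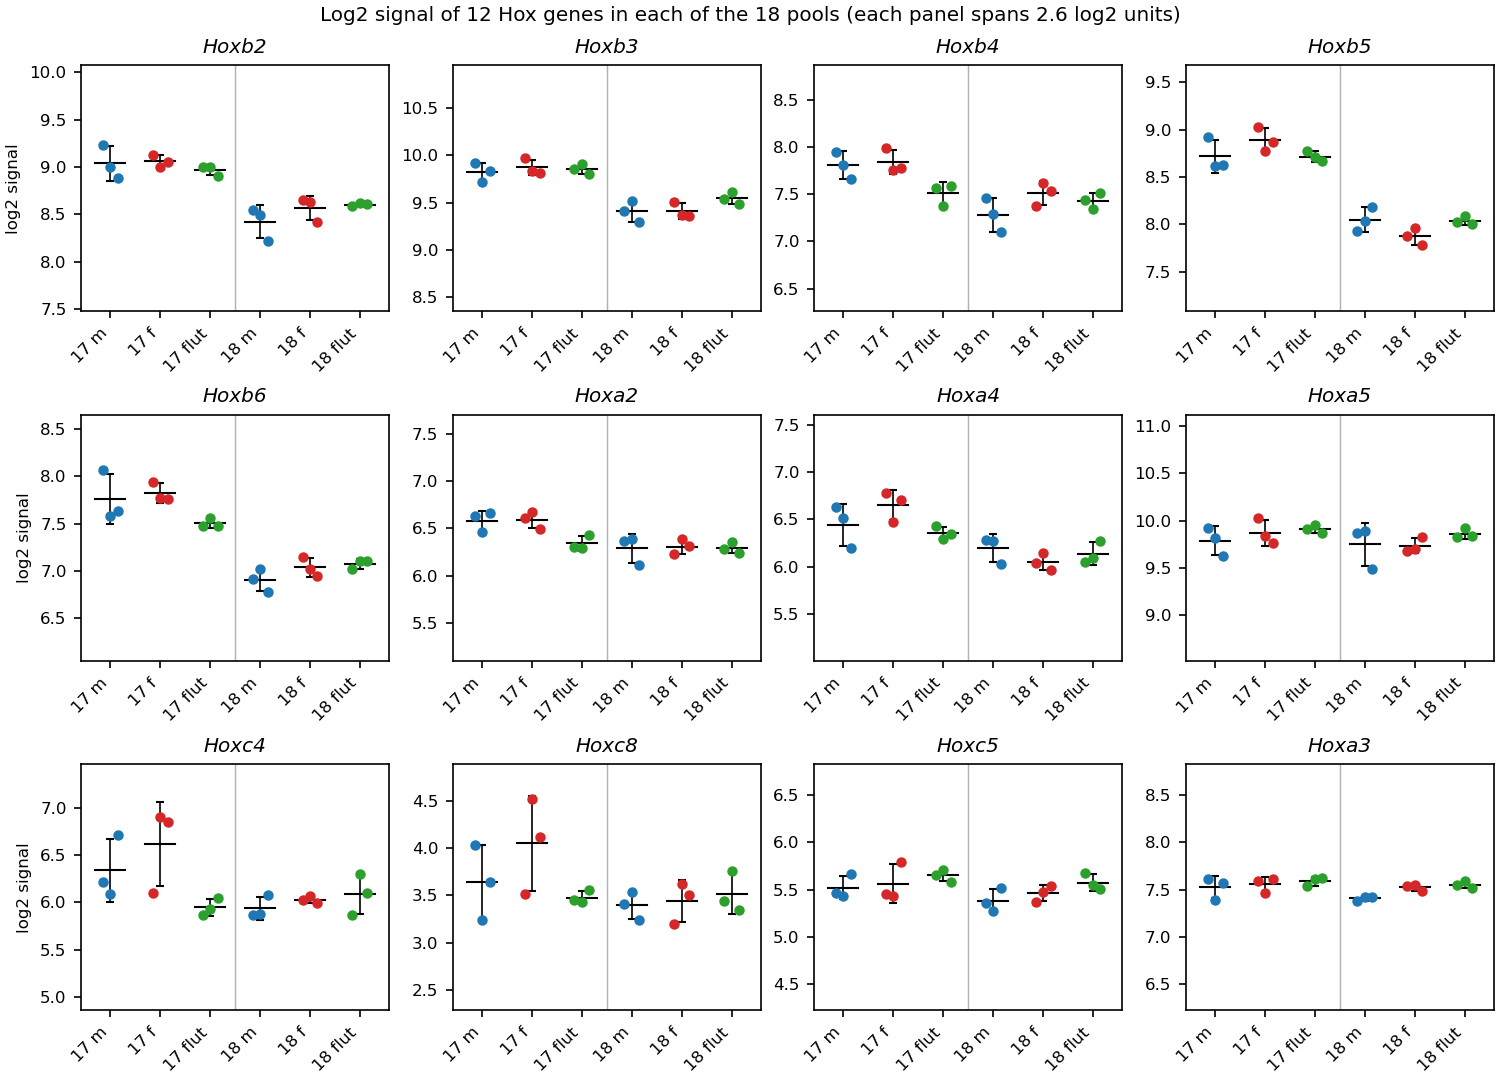
Log2 signal of 12 Hox genes in each of the 18 pools, with males in blue, females in red and flutamide-treated males in green, GD17 left and GD18 right of the grey line. Points are pools, horizontal lines are group means and bars show 1 SD over 3 pools. The pools of Hoxb2, Hoxb3, Hoxb5 and Hoxb6 do not overlap between the days, while those of Hoxa5 and Hoxa3 do, and the highest Hoxc4 values belong to 3 GD17 pools.

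The remaining 24 Hox genes were called in none of the 3 day comparisons. Over the family, Hoxa7 and Hoxb1 had the largest positive differences in males, at 0.24 (adjusted p = 0.082) and 0.22 (adjusted p = 0.067), though Hoxb1 did not exceed the signal of absent transcripts. In females Hoxc13 and Hoxa10 were the highest, at 0.15 and 0.12, and in flutamide-treated males Hoxc4 and Hoxa9, at 0.14 and 0.13. All 8 Hoxd genes stayed between -0.16 and 0.16 in the 3 comparisons, and none was called. Among probe sets not used above, 1 shared by Hoxb7 and Hoxb8 was lower at GD18 in males by a difference of -0.35 (adjusted p = 0.039) and in females by -0.36 (adjusted p = 0.028), whereas the value in flutamide-treated males was -0.24 and not called. The Hoxa3 probe sets disagreed in males, where 1 rose by 0.32 (adjusted p = 0.011), another fell by 0.22 (adjusted p = 0.047), and that of highest mean, at -0.12, was not called. A dim Hoxc5 probe set fell by 1.29 in females (adjusted p = 0.0039), and against 17 f 1 alone, without the pancreas-high pools, it was at -0.34 (adjusted p = 0.35). Without 18 m 3 and 18 flut 3 the male values of the Hoxb7 and Hoxb8 probe set (-0.35, adjusted p = 0.081) and of the lower Hoxa3 probe set (-0.20, adjusted p = 0.13) were not called, the latter nor without the pancreas-high pools (-0.25, adjusted p = 0.053).

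**Figure D3:**
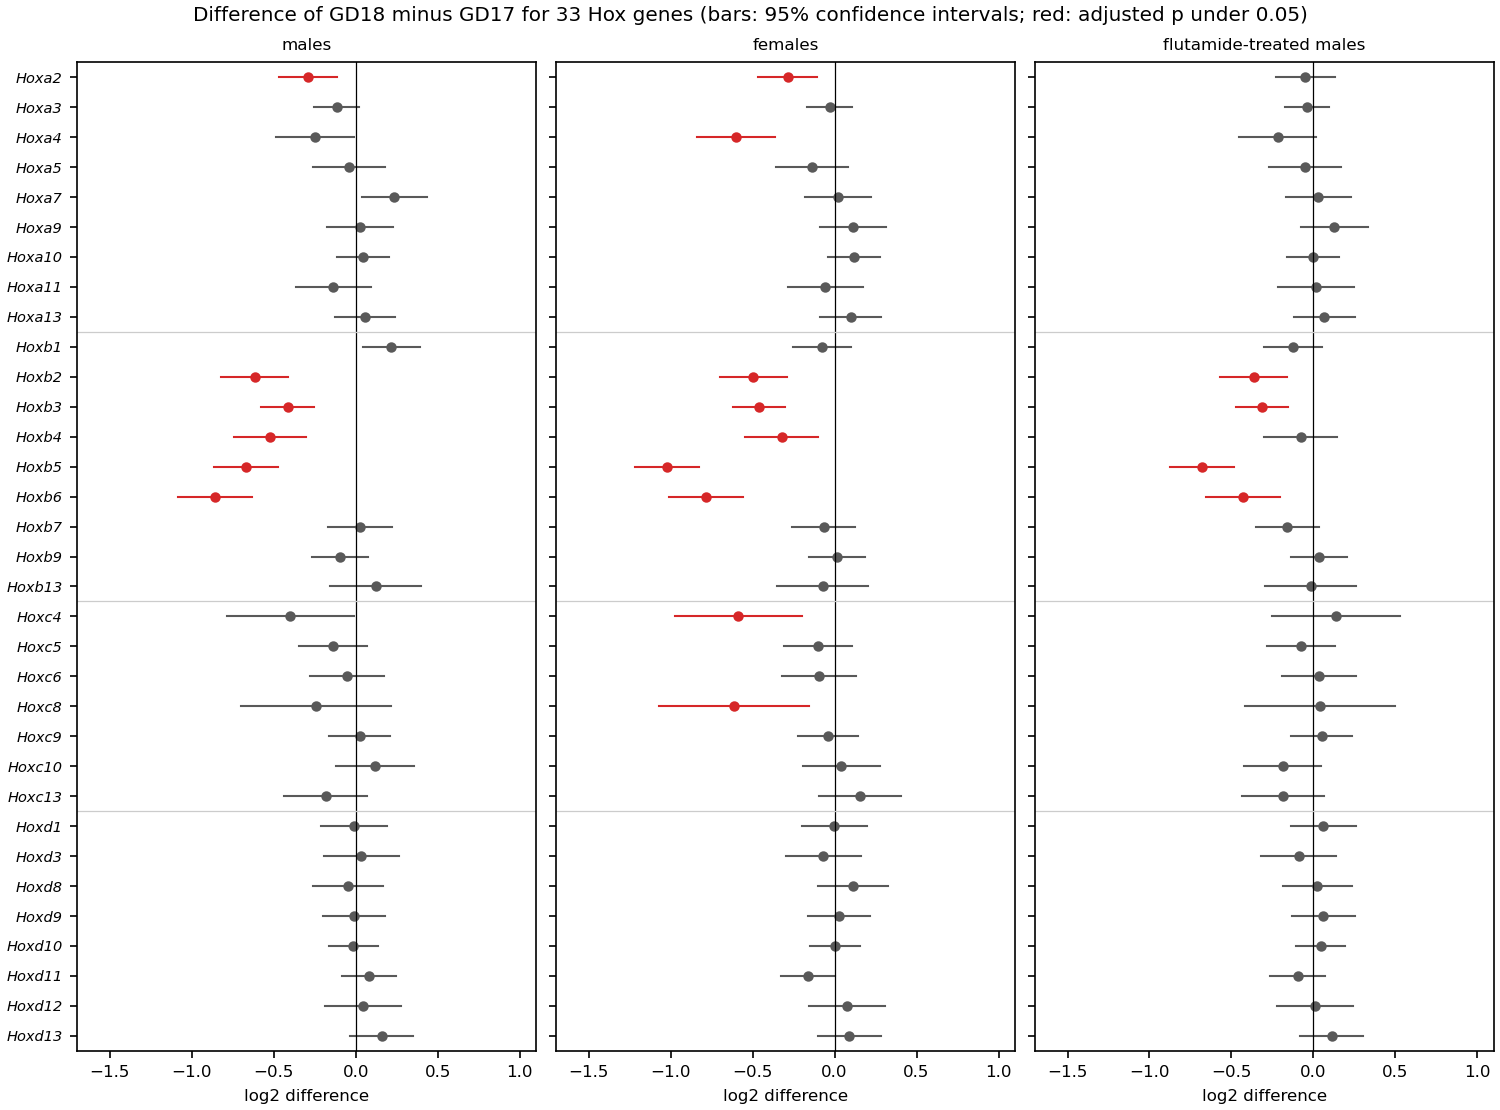
Differences of GD18 minus GD17 in males, females and flutamide-treated males for the 33 Hox genes, ordered by cluster, as log2 values with bars for the 95% confidence interval. Red marks an adjusted p under 0.05. All red points lie left of 0, and Hoxb5 in females reaches -1.02.

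With all 18 pools, no Hox gene was called between males and females on either day. At GD17 the count was 0 of 33, where 4.10% of all probe sets were called, and at GD18 it was 0 of 33, where 1.85% were called, by limma with an adjusted p under 0.05. At an unadjusted p under 0.05 there were 2 genes at GD17, Hoxc13 and Hoxd11, and 1 at GD18, Hoxb4, while 16.4% and 14.3% of all probe sets passed that threshold. The male and female pools did not overlap in 2 Hox genes at GD17 (6.06%) and in 1 at GD18 (3.03%), beside 22.7% and 16.5% of all probe sets. The median difference of males minus females was -0.04 at GD17 and -0.02 at GD18, beside -0.01 and 0.00 over all probe sets. On each day 24 of 33 Hox differences were below 0, beside 53.8% of all probe sets at GD17 and 49.2% at GD18. Hoxc13 was the highest in males at GD17, with a difference of 0.28 (95% confidence interval 0.03 to 0.53, adjusted p = 0.24), followed by Hoxd8 at 0.08. Without 17 m 3, Hoxc9 was called at GD17 (-0.27, adjusted p = 0.033), beside -0.14 with all pools. Hoxc8 and Hoxc4 were the lowest, at -0.41 and -0.28, where 17 f 2 and 17 f 3 were high. At GD18 Hoxb5 was the highest in males, with a difference of 0.18 (95% confidence interval -0.02 to 0.37), followed by Hoxb1 at 0.17, and the lowest were Hoxb4 at -0.23 (95% confidence interval -0.45 to -0.01, adjusted p = 0.33) and Hoxb2 at -0.14. For Hoxa5 the difference was -0.09 at GD17 (95% confidence interval -0.31 to 0.13) and 0.01 at GD18 (95% confidence interval -0.21 to 0.23). These intervals bound the sex difference of Hoxa5 but do not show that it is 0.

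Flutamide-treated males did not differ from males in a called Hox gene either, in comparisons that use the same male pools as those of sex. The count was 0 of 33 at GD17, where 3.55% of all probe sets were called, and 0 of 33 at GD18, where 3.95% were called, by limma with an adjusted p under 0.05. At an unadjusted p under 0.05 it was 7 genes at GD17 and 4 at GD18, while 20.3% and 17.2% of all probe sets passed. The pools did not overlap in 7 Hox genes at GD17 (21.2%) and in 8 at GD18 (24.2%), beside 28.5% and 19.4% of all probe sets. Males minus flutamide-treated males gave a median of -0.08 at GD17 and -0.11 at GD18, beside -0.02 and -0.01 over all probe sets. Of the Hox differences, 23 of 33 and 24 of 33 were below 0, beside 56.2% and 53.6% of all probe sets. Males minus females, with the same male pools, likewise had 24 of 33 below 0 on each day. At GD17 Hoxc4 had the highest difference, 0.39, and without 17 m 3 it was 0.20 (adjusted p = 0.56). Hoxb4 followed at 0.30 (95% confidence interval 0.08 to 0.52, adjusted p = 0.12), while its second probe set gave 0.01 (adjusted p = 0.97). Next were Hoxb6 at 0.26 (adjusted p = 0.19) and Hoxa2 at 0.24 (adjusted p = 0.13). In the probe sets used for these 4 genes the 3 pools of 17 m lay above the 3 pools of 17 flut. The most negative differences at GD17 were those of Hoxc10, -0.26, and Hoxd11, -0.19. At GD18 they were those of Hoxa11, -0.26 (95% confidence interval -0.49 to -0.03, adjusted p = 0.22), and Hoxc6, -0.22, and the highest were Hoxb1 at 0.16 and Hoxa7 at 0.12. Hoxb5 was at nearly the same level in both groups, with a difference of 0.00 at GD17 (95% confidence interval -0.19 to 0.20) and 0.01 at GD18 (95% confidence interval -0.18 to 0.21). Hoxa5 differed by -0.12 at GD17 (95% confidence interval -0.34 to 0.10) and by -0.11 at GD18 (95% confidence interval -0.33 to 0.11). A Hoxa3 probe set other than that of highest mean gave -0.30 for males minus flutamide-treated males at GD18 and was called (adjusted p = 0.038), though not without 18 m 3 and 18 flut 3 (adjusted p = 0.10) or without the pancreas-high pools (adjusted p = 0.054). Without 18 m 3, Hoxa9 (-0.33, adjusted p = 0.024) and Hoxd9 (-0.27, adjusted p = 0.037) were called at GD18, and without both 18 m 3 and 18 flut 3 only Hoxa9 was (-0.36, adjusted p = 0.039). Without 17 m 3, Hoxc9 was called at GD17 (-0.28, adjusted p = 0.032). Mesenchymal markers also differed at GD17, where Col1a1, Col1a2 and Dcn, 3 of 10 measured, were higher in males by 0.52, 0.32 and 0.75 (adjusted p = 0.0045, 0.024 and 0.047). Without the pancreas-high pools the calls of Col1a2 and Dcn were lost, and the part of these markers in the Hox differences was not tested.

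**Figure D4:**
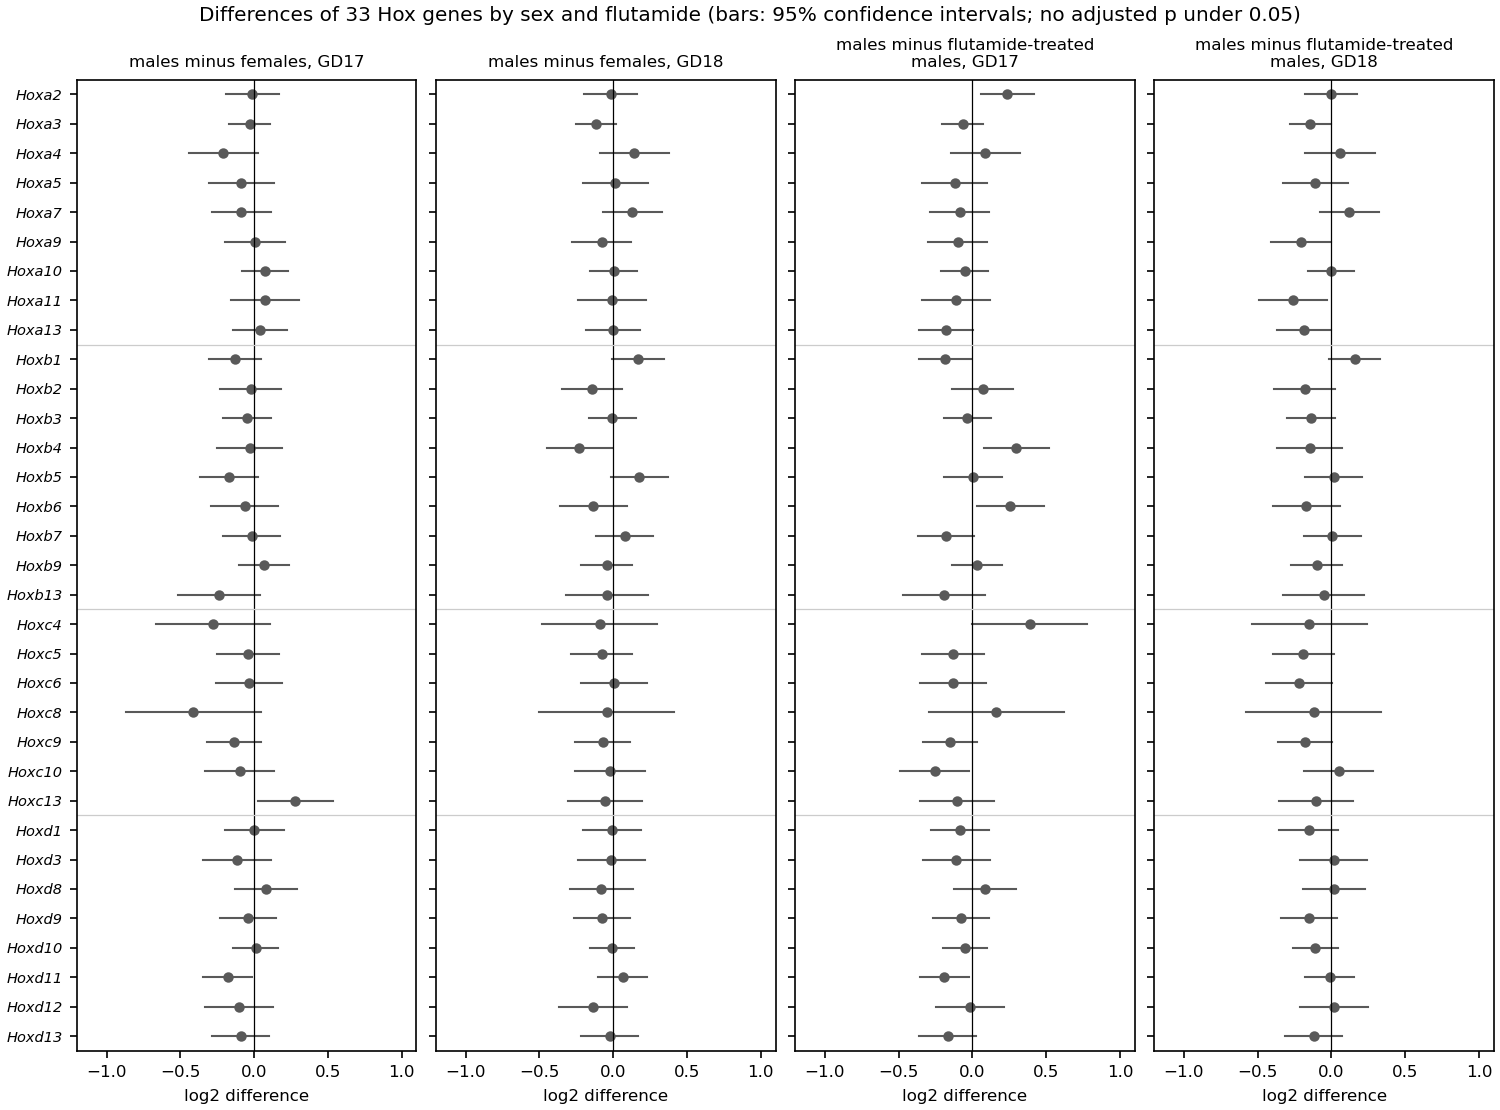
Differences of males minus females and of males minus flutamide-treated males at GD17 and GD18 for the 33 Hox genes, as log2 values with bars for the 95% confidence interval. No gene has an adjusted p under 0.05, and the largest difference, that of Hoxc8 between males and females at GD17, is -0.41.

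Whether the change between days depended on sex or on flutamide was tested with the interactions, the GD18 difference minus the GD17 difference. None of the 33 Hox genes was called for sex by day, where 6.54% of all probe sets were called, or for flutamide by day, where 0.364% were called, by limma with an adjusted p under 0.05. At an unadjusted p under 0.05 there were 4 and 3 Hox genes, while 20.2% and 11.8% of all probe sets passed. The fall of Hoxb5 was larger in females than in males by 0.35 (95% confidence interval 0.07 to 0.62, adjusted p = 0.13), and without 17 m 1 this value was 0.45 and called (adjusted p = 0.041). For sex by day Hoxc8 and Hoxa4 were the highest, at 0.37 and 0.35, and Hoxc13 and Hoxb4 the lowest, at -0.34 and -0.20. For flutamide by day, Hoxc4 and Hoxb4 were the lowest, at -0.54 and -0.45 (Hoxb4: 95% confidence interval -0.76 to -0.13, adjusted p = 0.24), and Hoxb6 was at -0.43 (adjusted p = 0.27). Without 17 m 3 the Hoxc4 value was -0.35 (adjusted p = 0.61), and the second Hoxb4 probe set gave -0.01 (adjusted p = 0.98). The highest were Hoxb1 at 0.34 and Hoxc10 at 0.30. A smaller fall of Hoxb4 or Hoxb6 in flutamide-treated males than in males was therefore not shown by this test. The 10 mesenchyme or fibroblast markers ran from -0.56 to -0.11 for sex by day, and 1 of them, Col1a1, was called. Their part in the Hox interactions was not tested.

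The TALE cofactors of Hox proteins were measured for 8 of 9 listed genes, and none was called for sex or for flutamide. In those comparisons 1.85% to 4.10% of all probe sets were called. Between the days, Meis1 was called lower in males (-0.35, adjusted p = 9.0e-04) and in females (-0.26, adjusted p = 0.0049). In females Pbx3 was also lower (-0.24, adjusted p = 0.0064), while Pbx2 was higher by 0.19 (adjusted p = 0.025) and Pknox2 by 0.25 (adjusted p = 0.014). Pknox2 was likewise higher in flutamide-treated males, by 0.30 (adjusted p = 0.0076), where Pknox1 was lower (-0.28, adjusted p = 0.0068). Cofactors thus moved in both directions, with 1 of 8 called in males, 4 in females and 2 in flutamide-treated males. The shares called over all probe sets were 25.0%, 33.6% and 20.3%. Without the pancreas-high pools the female calls of Meis1, Pbx2 and Pbx3 were lost, with values of -0.23, 0.13 and -0.18.

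Regulators of Hox genes, among them the Polycomb proteins that silence the clusters, were measured for 20 of 21 listed genes. At GD18, 5 were called lower and 3 higher in males, and 7 lower and 2 higher in females. In flutamide-treated males 7 were called lower and 2 higher. Of all probe sets, 25.0%, 33.6% and 20.3% were called between the days in males, females and flutamide-treated males. Ezh2, the methyltransferase of Polycomb repressive complexes, fell by 0.51 in males (adjusted p = 3.1e-04), by 0.97 in females (adjusted p = 3.0e-07) and by 0.95 in flutamide-treated males (adjusted p = 2.6e-06), while its paralog Ezh1 rose by 0.58, 0.89 and 0.60. Gmnn, the replication licensing inhibitor geminin, which also binds Hox proteins, fell by 0.54, 1.25 and 0.91. The Polycomb subunits Cbx2, Bmi1 and Phc1 were called lower in all 3, by differences of -0.25 to -0.66, and Eed and Suz12 in females and flutamide-treated males, by -0.25 to -0.61. Jarid2, a partner of Ezh2, was called higher in all 3, by 0.32 to 0.41, and Kmt2a, an activator of Hox genes, in males by 0.41. At GD17 no regulator was called for sex or flutamide, where 4.10% and 3.55% of all probe sets were called. At GD18 Ezh2 and Gmnn were higher in males than in females, by 0.35 (adjusted p = 0.042) and 0.50 (adjusted p = 0.023), and Ezh1 was lower (-0.38, adjusted p = 0.049). Compared with flutamide-treated males, Ezh2, Suz12 and Gmnn were higher in males at GD18 by 0.46, 0.48 and 0.49 (adjusted p = 0.0045, 0.0021 and 0.013). The interaction of sex and day was called for Ezh2 (0.47, adjusted p = 0.025) and Gmnn (0.72, adjusted p = 0.0072). Without the pancreas-high pools the female day calls of Eed, Suz12 and Jarid2, the male ones of Jarid2 and Kmt2a, the GD18 sex calls of Ezh2 and Ezh1 and both interactions were lost. Without 18 m 3 and 18 flut 3 the male day calls of Bmi1, Phc1, Jarid2 and Kmt2a (0.25) and that of Jarid2 in flutamide-treated males were lost.

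Of 9 genes that act with or after the group 5 Hox genes in lung, Mycn, a growth regulator of the distal epithelium, was called lower at GD18 by -0.87 in males, -0.80 in females and -0.63 in flutamide-treated males (adjusted p = 2.7e-05, 2.1e-05 and 4.8e-04). Bmp4 was called lower in flutamide-treated males (-0.31, adjusted p = 0.011). Between the days 1 of the 9 was thus called in males, 1 in females and 2 in flutamide-treated males. Over all probe sets 25.0%, 33.6% and 20.3% were called there. Wnt2, Wnt2b, Lef1, Axin2, Nkx2-1, Foxa1 and Foxa2 were called in none of the 9 comparisons. No gene of this list was called for sex or flutamide, where 1.85% to 4.10% of all probe sets were called.

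Other mesenchymal transcription factors moved both ways between the days, with 4 of 16 called lower and 2 higher in males. In females 6 were called lower and 4 higher, and in flutamide-treated males 2 lower and 1 higher. Over all probe sets, 25.0%, 33.6% and 20.3% were called in males, females and flutamide-treated males. Gli3, a transducer of hedgehog signals, was called lower in all 3, by -0.48, -0.61 and -0.44, and Gli1, a target of that pathway, in females and flutamide-treated males, by -0.84 and -0.75. Gli2, Foxf2 and Twist2 were called lower in males and females, by -0.23 to -0.71, and Barx1 in females by -0.83, a value of -0.04 (adjusted p = 0.90) without the pancreas-high pools. Tcf21, which marks lung mesenchyme, was called higher in all 3, by 0.56, 0.83 and 0.65, Hlx was higher in males and females by 0.61 and 0.48, and Tbx3 and Meox2 were higher in females by 0.35 and 0.31. At GD18 Gli1 had a higher signal in males, by 0.46 over females (adjusted p = 0.037) and by 0.45 over flutamide-treated males (adjusted p = 0.026), with a sex by day interaction of 0.59 (adjusted p = 0.027). All 3 Gli1 calls depended on the pools, since that over females and the interaction were lost without the pancreas-high pools, and that over females and that over flutamide-treated males without 18 m 3 and 18 flut 3. The female calls of Tbx3 (0.18, adjusted p = 0.56) and Hlx were also lost without the pancreas-high pools, and the male call of Foxf2 (-0.13, adjusted p = 0.24) without 18 m 3 and 18 flut 3.

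Markers of the main cell types of lung were tested between the same days. In males, females and flutamide-treated males, 25.0%, 33.6% and 20.3% of all probe sets were called there. Mesenchyme or fibroblast markers were measured for 10 of 10 genes, with 2 called higher and 1 lower at GD18 in males, 7 higher in females and 5 higher in flutamide-treated males. Of these calls, Pdgfra (0.15) and Lum in males and Vim (0.07) in females were lost without the pancreas-high pools, and Lum also without 18 m 3 and 18 flut 3. Their mean signal ran from 11.41 to 11.45 in 17 m and from 11.39 to 11.42 in 18 m, from 11.24 to 11.34 in 17 f and from 11.49 to 11.62 in 18 f, and from 11.16 to 11.22 in 17 flut and from 11.35 to 11.51 in 18 flut. The male ranges of GD17 and GD18 were close, with the GD18 pools at the lower end, and in females and flutamide-treated males the GD18 pools were the higher ones. Epithelial markers were called higher for 6, 5 and 4 of 8 genes and lower for 1 in each kind of lung, with a mean signal of 10.11 to 10.65 over the pools of GD17 and of 11.17 to 11.38 over those of GD18. Endothelial markers were called higher for 3, 4 and 4 of 5 genes and lower for none, with means of 9.05 to 9.29 at GD17 and 9.41 to 9.87 at GD18. The part of such shifts in cell makeup in the fall of Hoxb2 to Hoxb6 was not tested.

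**Figure D5:**
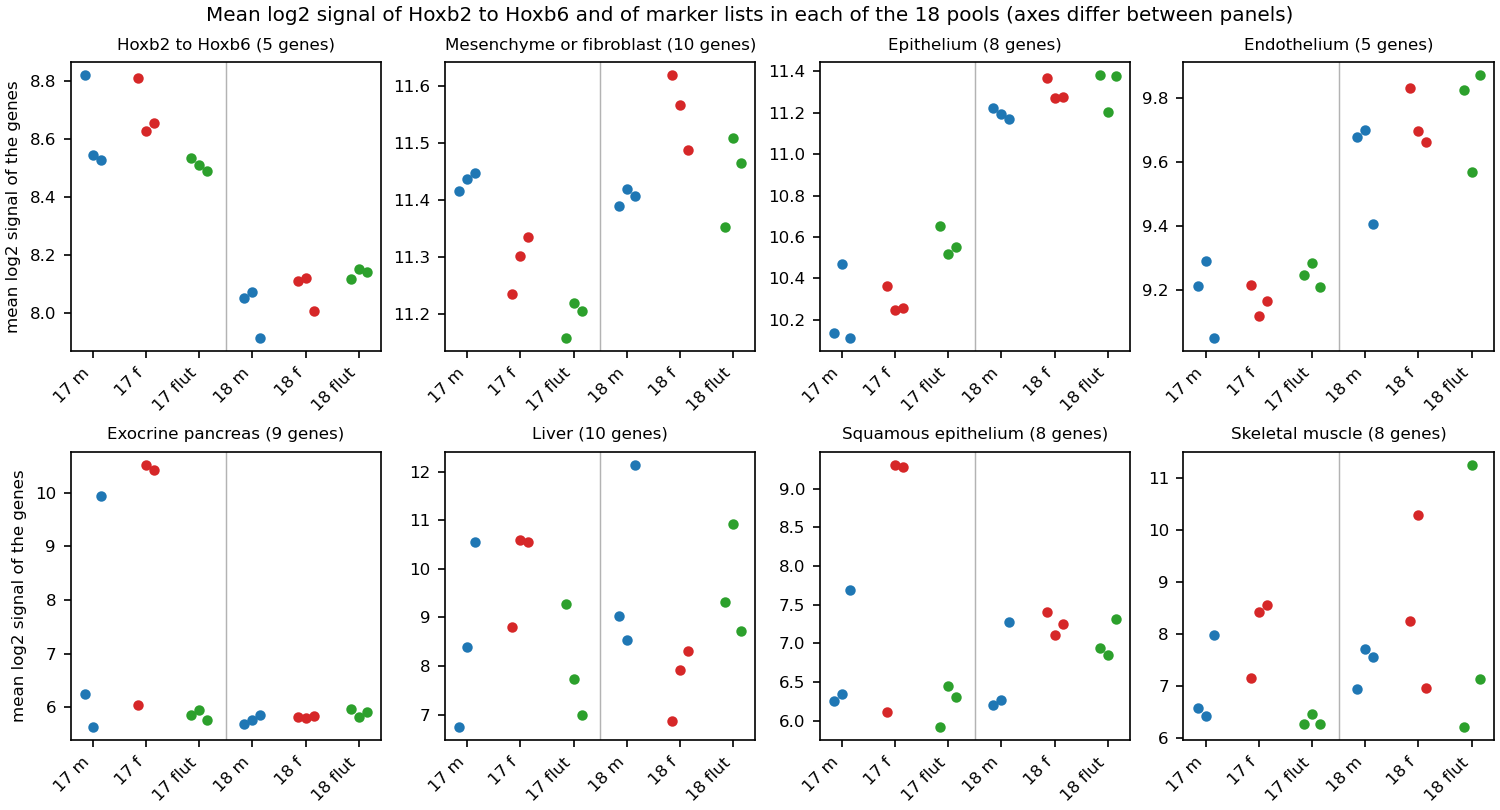
Mean log2 signal of Hoxb2 to Hoxb6 and of 7 lists of cell type markers in each of the 18 pools, with males in blue, females in red, flutamide-treated males in green and the days parted by the grey line. Each point is a pool, and each panel has its own log2 axis. The Hoxb mean is lower in all 9 pools of GD18, the epithelial and endothelial means are higher there, and pancreas genes stand at 9.94 to 10.5 in 3 pools of GD17.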

How the data were processed

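RNA pools of fetal mouse lung were hybridized on 18 arrays, and the authors deposited an RMA background-subtracted and normalized intensity for each probe set; the range of the values shows that it is linear. Here the log2 of this deposited intensity was taken. The CEL files were not used. The 64 AFFX controls of 45101 probe sets were left out. The platform annotation of 2016 gave 1 symbol to 34945 probe sets, several to 932 and none to 9160. The model, fitted with limma 3.58.1 in R 4.3.3 (12 residual degrees of freedom, eBayes), gave each of the 6 groups its own mean, and p-values were adjusted by Benjamini-Hochberg over 45037 probe sets within each of 9 comparisons. The model was tested on simulated data with independent noise in each probe set. These data held no pools that stood apart in genes of other tissues, so the test does not cover such pools. Adjusted p values given without named pools come from refits of the model to the remaining arrays. Groups were taken from the sample labels.

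The signal of absent transcripts was taken from 3 of 4 listed Y-linked genes, those measured, in 6 female arrays. Pool values are given for paralog group 5 and for each Hox gene called in at least 1 comparison. Of the other Hox genes, those with the 2 largest differences in each direction are named, with called members of the lists. The members and all lists were chosen with earlier results of these data known. P-values test differences of group means against the spread between pools, estimated over all 6 groups, and the number of arrays limits precision. Each pool mixes 3 fetuses, so the spread between single fetuses was not measured. Alternatives covered the threshold, scaling, array weights, variance prior, a filter on dim probe sets, the groups in the fit, the probe sets counted, a replicate block, each pool left out and the pools that stood apart left out. The last was extended to the other gene lists and probe sets after seeing the data.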

Additional observations from a re-analysis of the deposited data

How the results depend on the processing

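Over the alternatives tried, 19 called day differences of Hox genes were computed 320 times, stayed called 296 times and reversed 0 times, and all lost calls concerned Hoxa2, Hoxb4, Hoxc4 or Hoxc8. These counts include the unadjusted threshold, which each called difference passes by construction. They also include fits that left the compared pools as they were, such as the female differences without 18 m 3 and 18 flut 3. The share that stayed called is therefore not a measure of robustness. The 120 recomputed medians moved by less than the spread between pools. With unadjusted p-values the counts were 2 and 1 for sex and 7 and 4 for flutamide at GD17 and GD18, 10 for the days in males, and 4 and 3 for the sex and flutamide interactions. Flutamide counts rose to 1 (Hoxb4) at GD17 and 2 (Hoxa9, Hoxd9) at GD18 with array weights, and to 1 (Hoxa3) at GD18 with any probe set of a gene. They also rose to 1 (Hoxa9) at GD18 without 18 m 3 and 18 flut 3, and to 1 (Hoxc9) at GD17 without 17 f 2, 17 f 3 and 17 m 3. With 1 pool left out, counts ran from 0 to 1 for sex at GD17 (Hoxc9 without 17 m 3), 0 to 0 for sex at GD18, 0 to 1 and 0 to 2 for flutamide at GD17 and GD18, 5 to 6, 5 to 9 and 4 to 4 for the days in males, females and flutamide-treated males, and 0 to 1 and 0 to 0 for the interactions. The female count was 5 without 18 f 1. Of 84 calls in the other gene lists, 74 were kept without 18 m 3 and 18 flut 3 and 60 without 17 f 2, 17 f 3 and 17 m 3, a fit chosen for the lists after seeing the data in which 17 f is 1 array, and 0 reversed. The cause of these changes was not tested. As a replicate block, the pool numbers changed no count (6, 9 and 4 for the days, 0 otherwise). Nothing in the labels says that a number pairs samples, and 6 of 21 pairs correlated above 0.1 (range -0.32 to 0.37), with 10 of 18 arrays correlating best with their own number. The median correlation was -0.03 for pairs of the same number and 0.01 for pairs of other numbers. By the median Y-linked signal all 33 Hox genes, and by every Y-linked probe set 21, exceeded that of absent transcripts, and 11 lay at or above the median of all probe sets, so that dim genes such as Hoxc8 are limited by signal over background.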
